A study of Homo sapiens with 6 samples.

Results

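hsa-miR-103a-3p, hsa-miR-107 and hsa-miR-103a-2-5p (hsa, for human, is left out from here on) were measured by 3 of the 2565 miRNA probes on arrays hybridised with RNA of Panc-1 cells. The probes were taken by name. Panc-1 is an established line derived from a human pancreatic ductal adenocarcinoma, and all cells were kept for 72 h either without the cytokine TGF-β or with 10 ng/mL of it, a treatment the study used to induce the epithelial–mesenchymal transition (EMT). There were 3 arrays of control cells and 3 of TGF-β-treated cells, each read in a single colour (Cy5). The labels do not say whether the 3 arrays of a group came from separate cultures, so the p-values measure the spread between arrays, which may be technical. The arrays of each group were on a slide of their own, and slide and treatment cannot be told apart.

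miR-103 and miR-107 are vertebrate miRNAs carried in introns of the genes for pantothenate kinases, the enzymes that start the synthesis of coenzyme A, and have therefore been studied mainly in lipid and glucose metabolism. In breast cancer models they are known to pair with the mRNA of DICER1, the enzyme that cuts precursor hairpins into mature miRNAs, and their increase there lowers the miR-200 family and favours EMT. A precursor hairpin holds a 5p and a 3p arm, and the 3p arm of these precursors is the guide strand that is loaded into the silencing complex, whereas the 5p arm is mostly discarded.

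The mature sequences are shown first because the 2 guide strands are nearly the same molecule, which bears on what the probes can tell. All sequences were taken from RefSeq (GRCh38.p14). Capitals mark the seed, bases 2 to 8 from the 5′ end, which does most of the pairing with a target.
miR-103a-3p: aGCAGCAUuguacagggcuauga
miR-107: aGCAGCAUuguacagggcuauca
miR-103a-2-5p: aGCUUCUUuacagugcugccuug
miR-103a-1-5p: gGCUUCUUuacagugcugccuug
miR-103b: uCAUAGCCcuguacaaugcugcu
The guide strands of miR-103a and miR-107 had the same seed, GCAGCAU, and no other mature miRNA among the 2370 in the RefSeq table had it. Over their 23 bases they differed by a single substitution, G22C, written with the miR-103a-3p base first and counted from the 5′ end. No other mature miRNA of the same length in the table was within 2 substitutions of either, aligned at the 5′ end. Sequences of other lengths or shifted against the pair were not compared. How far the probes tell the pair apart is not given in the files, so signal at either probe may come in part from the other miRNA, and the 2 probes were not treated as independent evidence. miR-103a-2-5p differed from miR-103a-1-5p, which had no probe under its own name, by A1G. Signal at the miR-103a-2-5p probe may therefore come in part from that strand as well. miR-103b is the exact reverse complement of miR-103a-3p over all 23 bases.

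The precursors are shown to place each arm listed in the RefSeq table, which is in capitals. For MIR107 only the 3p arm was listed.
MIR103A1: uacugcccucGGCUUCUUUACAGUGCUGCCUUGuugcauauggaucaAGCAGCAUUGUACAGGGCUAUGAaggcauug
MIR103A2: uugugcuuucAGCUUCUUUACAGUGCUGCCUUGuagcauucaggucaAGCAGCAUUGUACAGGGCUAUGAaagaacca
MIR107: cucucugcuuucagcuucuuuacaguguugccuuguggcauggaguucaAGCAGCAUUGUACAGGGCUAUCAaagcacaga
MIR103A1 lies on chromosome 5 from 168560896 to 168560973, minus strand, within the interval of PANK3 (168548495 to 168579368). MIR103A2 lies on chromosome 20 from 3917494 to 3917571, plus strand, within PANK2 (3888781 to 3929887). MIR107 lies on chromosome 10 from 89592747 to 89592827, minus strand, within PANK1 (89579495 to 89645242). Each miRNA gene was on the strand of its host gene, at 18395, 28713 and 52415 bases from the start of PANK3, PANK2 and PANK1. Both miR-103a precursors give the same 3p sequence, so the miR-103a-3p probe reads the products of PANK3 and PANK2 together. The 2 precursors were identical at 63 of 78 positions. The sequence of miR-103a-2-5p belongs to the PANK2 precursor, but bases 13 to 35 of the MIR107 hairpin matched it with a single substitution, C16U. mRNA of the host genes and of DICER1 was not measured on these arrays.

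The arrays held 320 blank spots, which gave the background of the main analysis. A miRNA was taken as detected on an array where its spot exceeded the mean of the blank spots by 2 SD. By this rule, 1531 to 1787 miRNAs were detected per array, and the 1457 found on all 3 arrays of either group were tested. Of the miRNAs taken as cell type markers, the epithelial miR-200c-3p and miR-205-5p were each detected on 1 array and miR-141-3p on none. Other miRNAs of epithelial cells, not among these markers, were detected more widely, miR-200a-3p and miR-200b-3p on 6 arrays and miR-429 on 3. Of the pancreatic markers, miR-216a-5p was detected on 2 arrays, miR-375 on 1 and miR-217 on none. The blood cell miRNAs miR-451a, miR-144-3p, miR-223-3p and miR-142-3p were detected on 5, 3, 4 and 6 arrays, with mean deposited values between 7 and 14.3 units per group, on a scale on which the median detected miRNA is 25. The part of such signals in the results was not tested.

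All 3 miRNAs were detected on all 6 arrays, and none of them passed the test for a change with TGF-β. miR-103a-3p gave 1.00-fold the control level in TGF-β-treated cells (95% interval 0.914 to 1.10), miR-107 gave 0.957-fold (0.879 to 1.04) and miR-103a-2-5p gave 0.917-fold (0.758 to 1.11). In limma, 0 of the 3 had an adjusted p under 0.05 and 0 had an unadjusted p under 0.05, and the methods' t-test also gave 0 and 0. In the same fit 3.98% of all tested miRNAs were called, so that a count of 0 among 3 does not set these miRNAs apart. RNA came from whole cultures, in which fewer cells with a miRNA and less of it per cell cannot be told apart.

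miR-103a-3p, the guide strand made from both miR-103a genes, gave spot signals of 2060, 2343 and 2876 intensity units without TGF-β (control replicates 1 to 3) and of 2068, 2819 and 2654 units with it. These exceeded the blank mean by 3126 to 5302 blank-spot SDs. The groups overlapped, and the lowest array of each group gave nearly the same signal. After subtraction of the blank mean and quantile normalization, the log2 levels were 11.23 on each of the control arrays and 11.13, 11.23 and 11.34 with TGF-β. The TGF-β arrays lay on both sides of the control arrays. Its log2 fold change in limma was 0.0018 with a standard error of 0.059 (adjusted p = 0.997), and the exact permutation test over the arrays gave p = 0.8 (2-sided, where the smallest possible with 3 arrays against 3 is 0.1).

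The control arrays agreed in miR-103a-3p by construction: it was the probe of rank 21 on all 3 of them, and quantile normalization gives probes of the same rank the same value. Median scaling, which applies 1 factor to all probes of an array, gave log2 levels of 11.21 ± 0.11 for control and 11.28 ± 0.16 for TGF-β-treated cells (SD, n = 3 each). The fold change of miR-103a-3p was then 1.05 (95% interval 0.896 to 1.24, adjusted p = 0.882 from limma). The groups overlapped with this scaling as well (exact permutation test, p = 0.5).

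miR-107, the guide strand from PANK1, gave spot signals of 1797, 2017 and 2348 units without TGF-β and of 1710, 2286 and 2223 units with it. The groups overlapped here too, with the lowest array in the TGF-β group and the highest in the control group. Its quantile normalized log2 levels were 11.04, 10.99 and 10.99 without TGF-β and 10.90, 10.90 and 11.04 with it. Of the TGF-β arrays, 2 were below all control arrays and replicate 3 was level with the highest of them. Its log2 fold change in limma was -0.063 with a standard error of 0.056 (adjusted p = 0.706), and the exact permutation test gave p = 0.4. Median scaling gave log2 levels of 10.97 ± 0.093 for control and 11.004 ± 0.16 for TGF-β-treated cells (SD, n = 3 each). The direction of the miR-107 difference turned with that scaling, to a fold change of 1.02 (95% interval 0.874 to 1.20, adjusted p = 0.961 from limma).

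miR-103a-2-5p, the strand opposite the guide in the PANK2 precursor, was much nearer to the background. Its spot signals were 33.7, 38.6 and 41.6 units without TGF-β and 34.3, 35.9 and 38.1 units with it, which exceeded the blank mean by 22.7 to 32.5 blank-spot SDs. The groups overlapped in these signals. The quantile normalized log2 levels were 4.07, 4.38 and 4.09 without TGF-β and 4.05, 4.06 and 4.06 with it, so that the control arrays were all higher than the TGF-β arrays, by a narrow margin for control replicate 1. Groups that do not overlap were found for 18.9% of all tested miRNAs. Its log2 fold change in limma was -0.12 with a standard error of 0.12 (adjusted p = 0.744, exact permutation test p = 0.1). The size of the difference rested on control replicate 2, and without this array the log2 fold change was -0.024. With median scaling the groups overlapped (log2 levels of 4.18 ± 0.18 and 4.05 ± 0.055, SD, n = 3 each, exact permutation test p = 0.3).

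**Figure D1:**
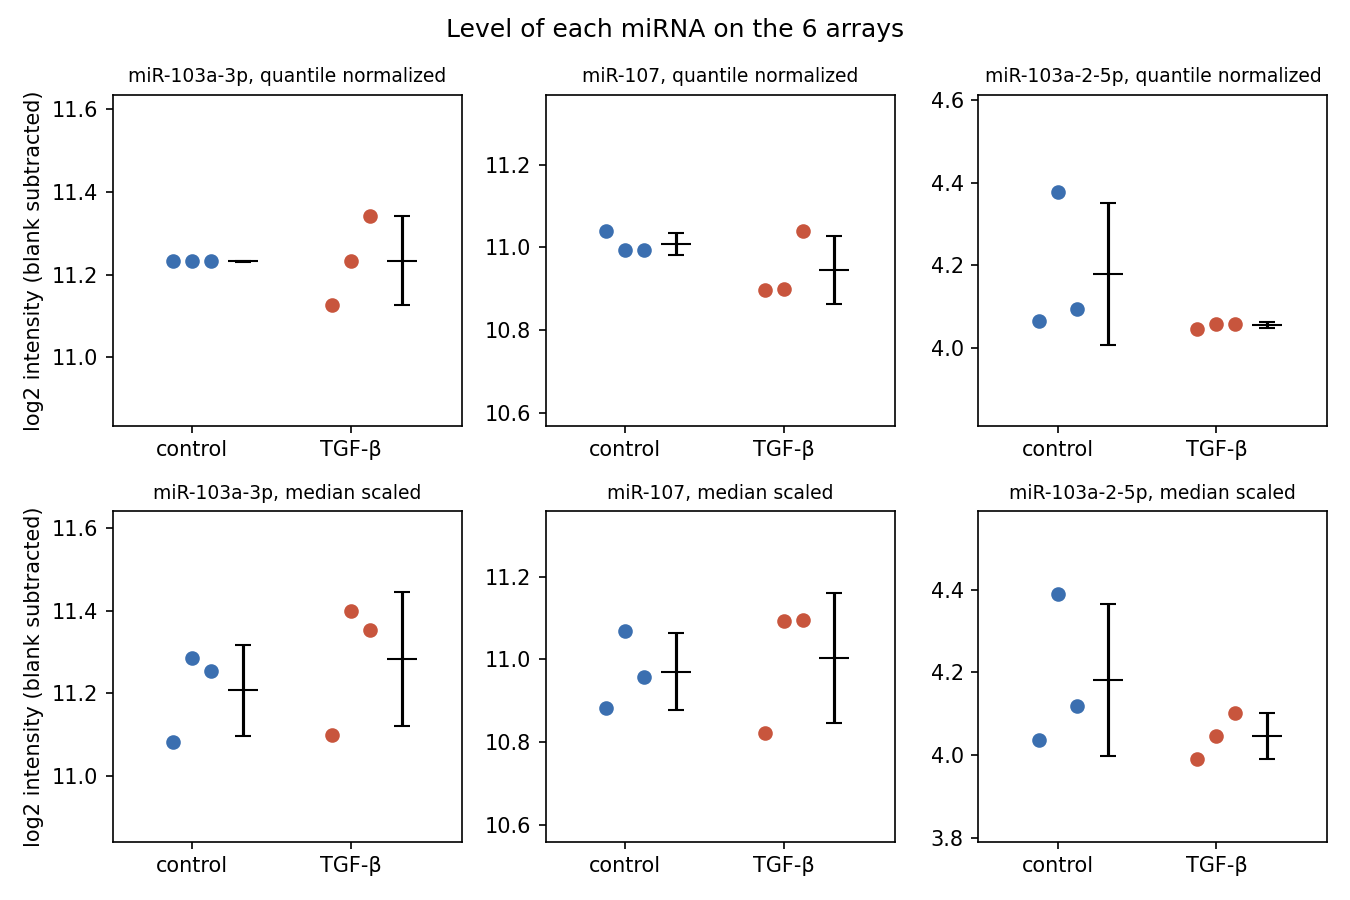
Log2 level of each miRNA on the 6 arrays (y axis, log2 of intensity after subtraction of the blank mean, every panel spanning the same range) for control and TGF-β-treated cells, with points for replicates 1 to 3 from left to right and the group mean ± SD (n = 3) beside them. The upper row is quantile normalized and the lower row median scaled; the groups overlap in every panel except that of miR-103a-2-5p in the upper row, and the control points of miR-103a-3p coincide at 11.23 in the upper row only.

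Whether the nearly identical guide strands changed unequally was examined within each array. The difference in quantile normalized log2 level between the miR-103a-3p and miR-107 probes, which depends on their ranks, was 0.19, 0.24 and 0.24 without TGF-β and 0.23, 0.34 and 0.30 with it. TGF-β replicate 1 fell within the range of the control arrays, and the other two were above it. With median scaling, where the factor of each array cancels in the difference, it was 0.20, 0.22 and 0.30 without TGF-β and 0.28, 0.30 and 0.26 with it. TGF-β replicates 1 and 3 then fell within the range of the control arrays, and replicate 2 was above it by a narrow margin. The change of miR-103a-3p exceeded that of miR-107 by 0.065 on the log2 scale in quantile normalized values and by 0.043 in median scaled values (exact permutation test, p = 0.3 for each). The difference did not pass the test, and with the possible sharing of signal between the probes the values do not show that the pair changed alike. Over the 6 arrays, the quantile normalized log2 levels of the pair had a Pearson correlation of 0.691. This value rests mainly on TGF-β replicates 1 and 3, since miR-103a-3p had rank 21 on every other array.

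In the values the authors deposited, which were scaled on each array's own detected miRNAs, miR-103a-3p was 9352 ± 833 units for control and 10746 ± 2455 units for TGF-β-treated cells (SD, n = 3 each), a ratio of 1.15. miR-107 was 7929 ± 645.8 and 8836 ± 1906 (SD, n = 3 each), a ratio of 1.11. miR-103a-2-5p was 72.0 ± 10.6 and 70.7 ± 10.3 (SD, n = 3 each), a ratio of 0.981. TGF-β replicate 2 was the highest array for both guide strands, at 13387 units for miR-103a-3p and 10837 for miR-107. Without it the ratios were 1.01 for miR-103a-3p, 0.988 for miR-107 and 0.903 for miR-103a-2-5p. That array had the largest scaling factor, 4.78, compared with 3.37 to 4.31 for the other arrays. The exact permutation tests on the deposited values gave p = 0.4, 0.6 and 0.8 for miR-103a-3p, miR-107 and miR-103a-2-5p.

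The scanner also reported a local background around each spot, and for the guide strands it reached the size of the signal on some arrays. Around the miR-103a-3p spot it was 2095, 593 and 3049 units without TGF-β and 2131, 1116 and 1644 units with it, and it exceeded the signal on control replicates 1 and 3 and TGF-β replicate 1. Around the miR-107 spot it was 1832, 850 and 1885 units without TGF-β and 1835, 1127 and 2005 units with it, and it exceeded the signal on replicate 1 of both groups. For miR-103a-2-5p the ratio of local background to signal was 0.584 to 0.908. With the local background, corrected by limma's normexp method, the log2 level of miR-103a-3p was 7.30 ± 2.30 for control and 8.45 ± 2.16 for TGF-β-treated cells (SD, n = 3 each). The log2 fold changes were 1.15 for miR-103a-3p (95% interval -2.66 to 4.96), -0.53 for miR-107 (-3.65 to 2.60) and 0.00076 for miR-103a-2-5p (-0.20 to 0.20), with adjusted p-values of 0.990 to 0.998 from limma, and 0% of the tested miRNAs were called. For miR-107 the log2 level was 8.15 ± 1.75 for control and 7.62 ± 1.76 for TGF-β-treated cells (SD, n = 3 each). The SD within each group was larger than the difference between the groups for both guide strands. These comparisons leave the replicate numbers out, and no fit with a replicate block was run with the local background. By replicate, miR-107 was 6.14, 9.33 and 8.97 for control and 5.81, 9.33 and 7.72 for TGF-β. miR-103a-3p was 6.14, 9.95 and 5.81 for control and 5.96, 9.76 and 9.63 for TGF-β.

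**Figure D2:**
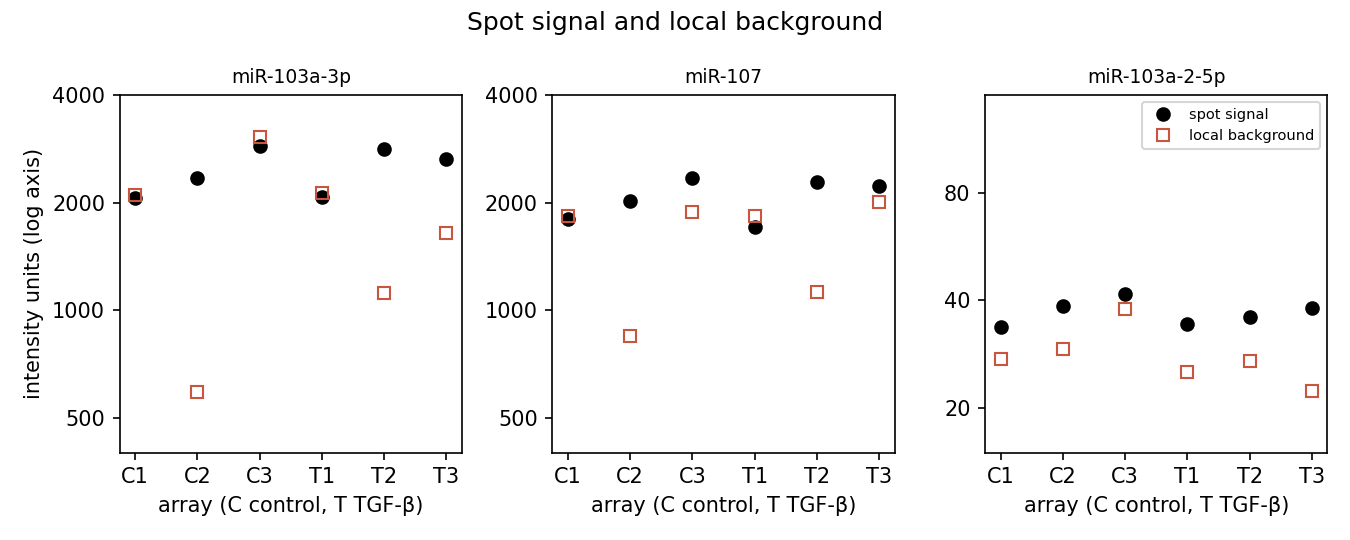
Spot signal (filled circles) and local background (open squares) in intensity units on a log axis for each miRNA on the 6 arrays (x axis, C for control and T for TGF-β with the replicate number). The squares lie at or above the circles for miR-103a-3p on C1, C3 and T1 and for miR-107 on C1 and T1, and below them on the other arrays.

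**Figure D3:**
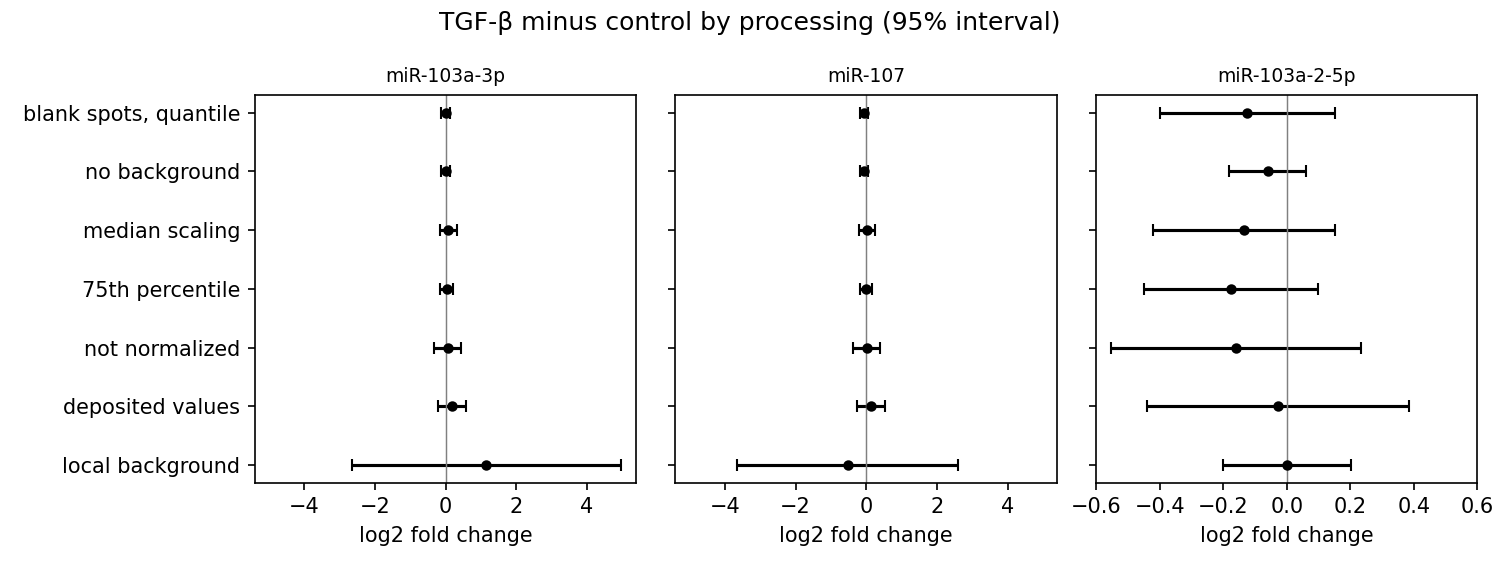
Log2 fold change of TGF-β-treated against control cells (x axis) with its 95% interval from limma for the 3 miRNAs under 7 ways of processing (y axis); the panel of miR-103a-2-5p has a narrower x axis. Every interval includes 0, and those of the local background are widest for miR-103a-3p (-2.66 to 4.96) and miR-107 (-3.65 to 2.60).

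miR-103b, encoded on the strand opposite to MIR103A1 and MIR103A2, has its own probe on the array. Its signals were 19.7, 20.5 and 22.7 units without TGF-β and 20.1, 20.2 and 22.3 units with it, only 1.06 to 2.67 blank-spot SDs above the blank mean. It was detected on 2 arrays of each group and did not enter the limma fit. Its quantile normalized log2 level was 0.53 ± 0.18 for control and 0.29 ± 0.28 for TGF-β-treated cells (SD, n = 3 each, exact permutation test p = 0.3), with TGF-β replicate 1 at the floor of 1 unit.

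miR-103a-3p and miR-107 belong to a wider group with miR-15 and miR-16, whose members carry AGCAGC at their 5′ end (here the AGCAGC group) and are known for targets in the cell cycle and metabolism. They are printed beside a pair of relatives, with AGCAGC in capitals, to show that the guide strands carry it from base 1 and their relatives from base 2, so that the seeds differ.
miR-103a-3p: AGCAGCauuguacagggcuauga
miR-107: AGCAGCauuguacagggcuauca
miR-16-5p: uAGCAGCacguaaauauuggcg
miR-503-5p: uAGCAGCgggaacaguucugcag
In the RefSeq table, 11 of 2370 mature miRNAs (0.464%) had AGCAGC starting at base 1 or 2. These were the 10 miRNAs listed in the group and miR-6838-5p, which was not on the list. Of the 10, 9 were detected on all arrays and miR-646 on none. The median log2 fold change of the 9 was -0.074, with a range of -0.30 to 0.28, beside a median of -0.013 for all tested miRNAs. With median scaling the median of the 9 was -0.0081 beside 0.015 for all tested miRNAs, and in the deposited values it turned to 0.093 beside 0.11. miR-6838-5p, looked up after the values of the others were seen, was detected on all arrays and did not pass the test (log2 fold change -0.27, standard error 0.19, adjusted p = 0.584 from limma), and with it the median was -0.093. miR-107 (-0.063) and miR-103a-3p (0.0018) lay between miR-497-5p (-0.074) and miR-424-5p (0.13), and the 95% intervals of all 4 included 0. Within the group, 1 of 9 was called by limma (3.98% of all tested miRNAs). In quantile normalized values, the groups of arrays did not overlap for 5 of 9 (18.9% of all tested miRNAs). Of these 5, miR-15b-5p and miR-195-5p were lower with TGF-β, but not in mean deposited values (1547 and 1626, 982 and 987 units, control and TGF-β). miR-15a-5p (2031 and 1940), miR-16-5p (22423 and 22384) and miR-503-5p (115 and 154) kept their direction.

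The called relative was miR-16-5p, which targets cyclins and BCL2 and was lower in TGF-β-treated cells by quantile normalized values (log2 fold change -0.30, standard error 0.058, adjusted p = 0.0117 from limma). Its call was lost with median scaling (log2 fold change -0.11, adjusted p = 0.758 from limma) and in the deposited values (-0.011, adjusted p = 0.989). It was also lost when control replicate 2 or any TGF-β array was left out (adjusted p = 0.0555 to 0.0838), while the log2 fold change stayed between -0.35 and -0.28. The difference between the change of miR-16-5p and those of miR-103a-3p and miR-107 was not tested.

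**Figure D4:**
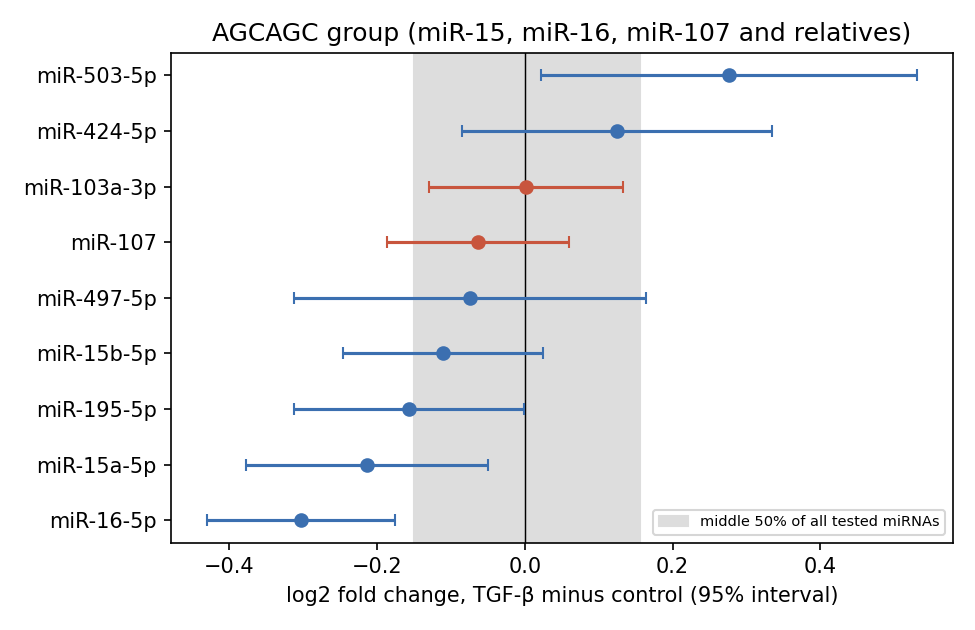
Log2 fold change of TGF-β-treated against control cells (x axis) with its 95% interval from limma for the 9 detected miRNAs of the AGCAGC group (y axis, miR-103a-3p and miR-107 in red), with a band holding the middle 50% of all tested miRNAs (-0.15 to 0.16). miR-103a-3p and miR-107 lie inside the band, and their intervals include 0.

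The miR-200 family, miRNAs of epithelial cells that repress the ZEB transcription factors and the set described as falling where miR-103 and miR-107 are high, was detected in part. Of its 3p arms, miR-200a-3p and miR-200b-3p were detected on all 6 arrays, miR-429 on 3, miR-200c-3p on 1 and miR-141-3p on none. The 2 of these that could be tested had log2 fold changes of 0.22 (standard error 0.24, adjusted p = 0.767) and -0.014 (standard error 0.15, adjusted p = 0.993) from limma for miR-200a-3p and miR-200b-3p. Neither passed the test, and their mean deposited values were 21.7 and 26.7 units for miR-200a-3p and 30.3 and 32.7 units for miR-200b-3p (control and TGF-β), around the 25 units of the median detected miRNA. Of the 5p arms, which were not on the list and were looked up later, miR-200a-5p was detected on 5 arrays and tested. Its quantile normalized log2 level, near the floor, was 1.66 for control and 0.96 for TGF-β. It did not pass the test either (log2 fold change -0.71, standard error 0.39, adjusted p = 0.479 from limma). Its mean deposited values were not lower with TGF-β (12.3 units for control and 12.5 for TGF-β). The arms miR-200b-5p, miR-200c-5p and miR-141-5p were detected on 3, 1 and 1 arrays and not tested. Their log2 levels were 0.28, 0 and 1.27 for control and 0.77, 0.32 and 0 for TGF-β.

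The miRNAs whose quantile normalized levels followed the guide strands most closely over the 6 arrays were ranked by Pearson correlation among the other 1279 miRNAs detected on all arrays. For miR-103a-3p they were miR-6747-3p (0.967), miR-7111-5p (0.950), miR-8089 (0.947), miR-6785-3p (0.939) and miR-361-3p (0.929). For miR-107 they were miR-4734 (0.984), miR-3200-3p (0.927), miR-7150 (0.914), miR-449b-5p (0.896) and miR-4539 (0.890). The lists had no miRNA in common. The correlation of 0.691 between miR-103a-3p and miR-107 was exceeded by 73 miRNAs for the former and 95 for the latter. These correlations describe 6 arrays that share 2 slides. Those of miR-103a-3p, including that with miR-107, rest mainly on TGF-β replicates 1 and 3. Its rank was 21 on the 3 control arrays and on TGF-β replicate 2, so its values there were nearly equal by construction.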

How the data were processed

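RNA was labelled with Cy5 and hybridised to 1-colour arrays of 3200 spots. The files deposited by the authors hold the median intensity of each spot and of its surroundings on a linear scale, not normalized, and a table of processed intensities. The table was rebuilt from the scanner files as signal minus the trimmed blank mean, scaled to a median of 25 over detected miRNAs; the largest difference was 0.500, the effect of rounding. Its method and the genome build are not given in the sources used here.

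The mean of the blank spots, without 5% at each end, was subtracted, values under 1 unit were set to 1, and log2 values were quantile normalized over the miRNA probes. Groups were compared with limma 3.58.1 in R 4.3.3 (lmFit, eBayes with intensity trend), with Benjamini-Hochberg adjustment over 1457 miRNAs. Flagged spots were missing. Single miRNAs were tested with an exact permutation test, 2-sided. The local background, corrected with limma's normexp method (offset 50), served as an alternative because it rose with the spot's own signal, reaching a median of 0.434 to 0.990 of the signal per array on spots above 200 units. The other alternatives were no background correction, an untrimmed blank mean, a floor of 0.5, other scalings, the deposited values, other filters on dim probes, omission of each array, a replicate block, limma without trend or with a robust fit, and the methods' t-test.

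The miRNAs, the lists, the background correction and the rule for the names given were chosen with earlier results of these data known. Named miRNAs were the 3 themselves, near-identical or antisense miRNAs, the AGCAGC group (miR-15, miR-16, miR-107 and relatives), the miR-200 family, cell type markers and the 5 most alike in pattern. Of the array's 2588 miRNA names, 2281 matched the RefSeq table. Figures were drawn with matplotlib 3.10.9 in Python 3.11.15. The number of arrays limits the precision.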

Additional observations from a re-analysis of the deposited data

How the results depend on the processing

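Over 21 alternatives, including each array left out, none of miR-103a-3p, miR-107 and miR-103a-2-5p had an adjusted p under 0.05 in limma or the methods' t-test (lowest 0.460) or an unadjusted p under 0.05 (lowest 0.0578). miR-107 turned from -0.063 to 0.034 with median scaling, 0.0099 without normalization between arrays and 0.14 in the deposited values, where the median of all tested miRNAs was itself 0.11; changes in the deposited values are relative to that shift. miR-103a-2-5p turned from -0.12 to 0.00076 with the local background. With each array left out, the log2 fold change was -0.062 to 0.040 for miR-103a-3p, negative only without TGF-β replicate 3 (-0.062), -0.11 to -0.038 for miR-107 and -0.18 to -0.024 for miR-103a-2-5p. The excess of the change of miR-103a-3p over that of miR-107 was above 0 in the alternatives run for it (0.043 to 1.67, the highest with the local background).

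Of all tested miRNAs, 58 were called (38 higher, 20 lower). The count was 0 with the local background (34 at an unadjusted p under 0.05), 35 without normalization (27 higher, 8 lower), 31 in the deposited values (27 higher, 4 lower), 19 without a filter, 32 for limma without trend, 17 for the methods' t-test (194 before adjustment), and 25 to 51 with each array left out, lowest without TGF-β replicate 2 (25), then without TGF-β replicate 3 (33) and control replicate 2 (35). For the AGCAGC group the count fell from 1 to 0 with the local background, median scaling, 75th percentile scaling, no normalization, the deposited values, detection on at least 1 array, no filter, limma without trend and the methods' t-test, and was 0 to 1 with each array left out. The causes were not tested.

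With the replicate number as a block, the log2 fold changes of miR-103a-3p, miR-107 and miR-103a-2-5p were the same (0.0018, -0.063 and -0.12; adjusted p = 0.997, 0.644 and 0.733 from limma), 60 miRNAs were called and 1 of the AGCAGC group. With the blank-spot background, the deviations of same-numbered arrays had correlations of 0.13, 0.11 and -0.027 over 1282 miRNAs. Only the last was under the limit of 0.1 for pairs, and 3 of 6 arrays correlated best with their own number. The numbers were not taken to pair the arrays there, which these correlations do not settle. With the local background the correlations of same-numbered arrays were 0.30, 0.48 and 0.25, all above the limit. Between same-numbered arrays, in comparisons added after the data were seen, the change of miR-103a-3p exceeded that of miR-107 in 3 of 3 pairs of quantile normalized values, by 0.037, 0.095 and 0.063 (mean 0.065, exact sign-flip p = 0.25, the smallest possible), but in 2 of 3 pairs of median scaled values (0.078, 0.087 and -0.037, mean 0.043, exact p = 0.5).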
